A study of Mus musculus with 6 samples.

Results

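Transcripts of 36 endothelial identity genes were compared between whole FVB mouse embryos of diabetic and of control pregnancies. The genes were a fixed list of surface and junction proteins, receptors and ligands, transcription factors, and arterial and lymphatic genes. Every probe set that the platform's table assigns to exactly 1 of these symbols was taken, which gave 59 of the 45101 probe sets of the Affymetrix Mouse 430 2.0 array, an oligonucleotide array that reads each transcript with sets of short probes. Of these, 52 probe sets of 35 genes were bright enough to be tested. The gap junction gene Gja5 was not, with signals of 2.20 to 4.90 in the diabetes-exposed pools and 2.40 to 4.20 in the control pools.

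Embryos were taken at gestation day 10.5. Dams of the diabetes-exposed embryos were 7 to 9 weeks old when they received 2 injections of 100 mg streptozotocin per kg body weight, which kills pancreatic beta cells. Only dams with blood glucose over 250 mg/dl were used. Control embryos came from control pregnancies, for whose dams the sources used here give no injection. Each array held RNA of 3 morphologically normal embryos from different pregnancies, with 3 diabetes-exposed pools and 3 control pools, or 9 embryos per group. Whole embryos hold many tissues, so that fewer endothelial cells and less RNA per endothelial cell cannot be told apart.

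Endothelial cells line blood and lymph vessels. They arise from mesodermal progenitors shared with blood under the ETS factor Etv2, take on their identity under further ETS factors and the SoxF factors, and are held together by junctions built on VE-cadherin. Arteries, veins and lymphatic vessels then acquire their own genes, in part under the influence of blood flow. At mid-gestation the first vessel network of the embryo is being remodeled and its identity genes are active throughout the body.

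The signals are relative values on a linear scale, 1 per probe set and array. In the text, a gene or probe set rose or fell when its adjusted p was under 0.05 in a fit over all tested probe sets. Each gene was read at its brightest tested probe set, and SE is the standard error of a log2 fold change. Of the 35 measured endothelial genes, 7 rose, 6 fell and 22 did not pass. The 7 that rose were Ramp2, Etv2, Cdh5, Esam, Icam2, Angpt1 and Aplnr, and the 6 that fell were Tie1, Pecam1, Nos3, Stab1, Klf4 and Ets1. These counts stood close to those of the whole array. Of the endothelial genes 20% rose, against 17.6% of all 13956 tested genes, and 17.1% fell, against 19.9% of all. At the level of probe sets, 7 of 52 endothelial ones rose (13.5%, against 14.4% of all 30023) and 12 fell (23.1%, against 21.8% of all). The groups did not overlap for 20 of the 35 genes (57.1%), against 52.3% of all genes. The median log2 fold change of the endothelial genes was 0.046 and that of all tested genes -2.54e-04. What follows concerns single members.

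**Figure D1:**
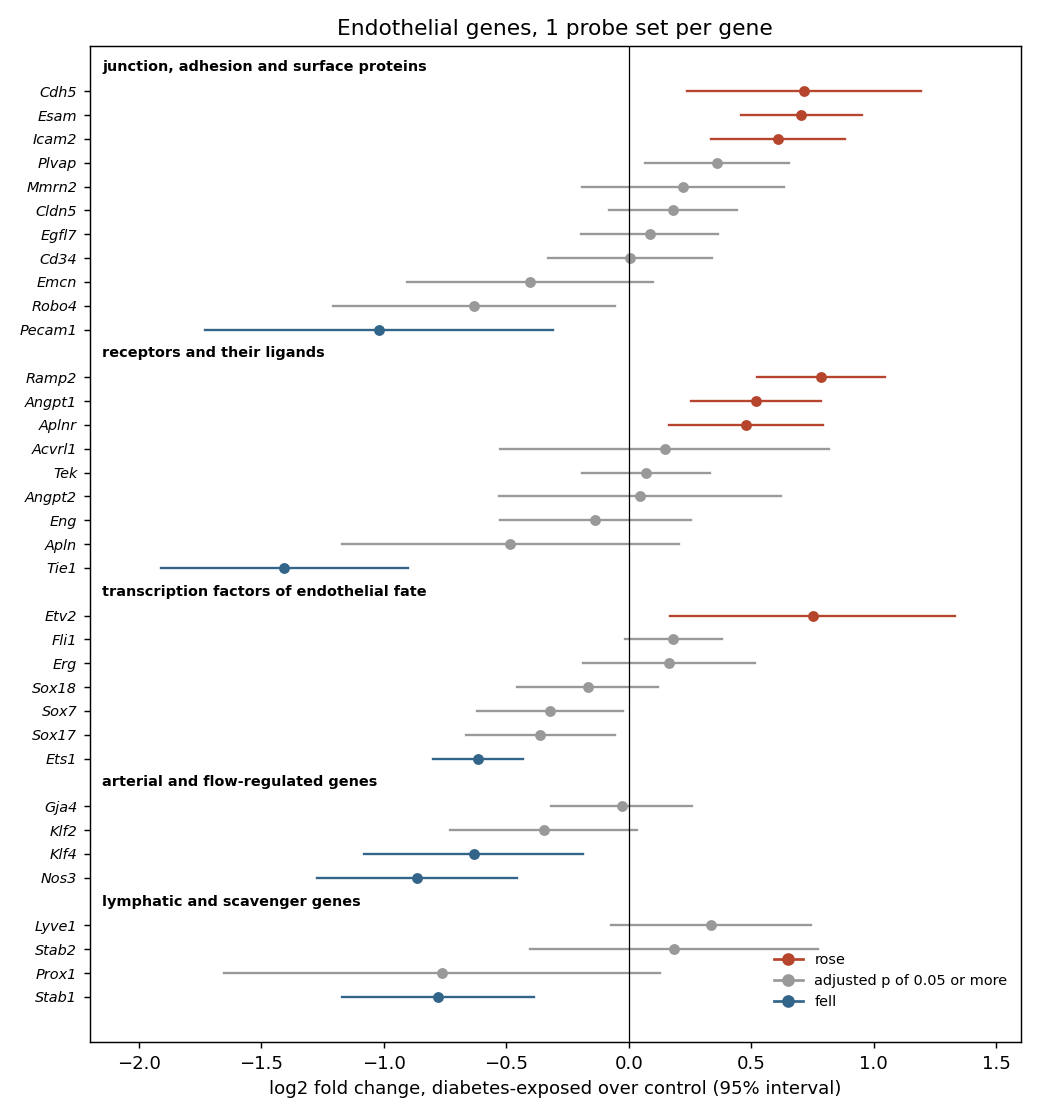
Log2 fold change of diabetes-exposed over control pools (horizontal axis, point) with its 95% interval (line) for the 35 measured endothelial genes, grouped by role. Genes that rose and fell stand side by side among the surface proteins, the receptors and the transcription factors, and the values as deposited span -1.41 (Tie1) to 0.78 (Ramp2).

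Several measurements of the arrays moved with the groups and stand beside each result below. The median signal was 74.1 to 78.9 on the diabetes-exposed arrays and 82.5 to 103.3 on the control arrays. The ratio of 3' to middle signal of the poly-A spikes, polyadenylated bacterial control transcripts, was 6.56, 3.47 and 7.00 on the diabetes-exposed arrays and 2.10, 2.07 and 2.52 on the control arrays. For beta-actin the 3' to 5' ratio was 10.1, 3.09 and 10.3 on the exposed arrays and 1.71, 1.76 and 2.19 on the control arrays. For both ratios an exact permutation test gave a two-sided p of 0.1, below which 3 against 3 arrays cannot go. By these ratios exposed pool 2 was the closest to the controls. In signal it was the exposed pool closest to the controls for 4 of the 7 genes that rose and 3 of the 6 that fell. It was the farthest from them for 2 of the 7 and 2 of the 6. The same shares over all genes were not computed. Prl8a2, a hormone gene of the maternal decidua, had signals of 39.0, 39.3 and 30.7 in the diabetes-exposed pools and 6522, 5699 and 6412 in the control pools. It was 1 of 6 measured markers (of 13 listed) of placenta, decidua and yolk sac, of which Afp and Ttr rose and Prl8a2 alone fell. Their summed signal was 6499 to 10010 in the exposed pools and 10550 to 10940 in the controls, and without Prl8a2 it was 6460 to 9976 in the exposed pools and 4244 to 4847 in the controls. Of 14 markers of embryonic tissues, 6 rose and 3 fell. Beside both lists, 17.6% of all genes rose and 19.9% fell. The 6 were Myl7 and Tnnt2 of heart muscle, Krt8 and Krt18 of epithelia, Myf5 of skeletal muscle, and Afp. The 3 were Nes, Sox2 and Pax6, of neural tissue. Tbx5 of the heart (-0.13) and Tubb3 of neurons (-0.22) were among the 5 that did not pass. The part of these array and tissue differences in the endothelial results was not tested.

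Counts within the role groups rest on 4 to 11 genes each and are given as descriptions, beside 17.6% of all genes that rose and 19.9% that fell. Among the 11 surface, junction and matrix genes, 3 rose and 1 fell. Cdh5 encodes VE-cadherin, the adhesion protein of endothelial adherens junctions. Its signal was 638.8, 732.2 and 531.4 in the diabetes-exposed pools and 434.7, 278.6 and 463.2 in the control pools. Each exposed pool lay above each control pool, and Cdh5 rose 1.64-fold (log2 fold change 0.72, SE 0.21, adjusted p = 0.027). Esam, an adhesion molecule of endothelial tight junctions, gave 1015.7, 916.6 and 1118.2 in the exposed pools, against 606.9, 618.3 and 641.2 in the controls. This 1.63-fold rise (0.70, SE 0.11, adjusted p = 0.0020) was larger than the spread in either group. Icam2, a ligand for leukocyte integrins that endothelium carries at all times, stood at 796.1, 674.2 and 745.4 in the exposed pools and 462.0, 455.6 and 534.2 in the controls. It rose 1.53-fold (0.61, SE 0.12, adjusted p = 0.0053) without overlap of the groups.

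Pecam1, an adhesion molecule of endothelial cell contacts that platelets and leukocytes also carry, went the other way. Its signal was 139.0, 346.5 and 155.4 in the diabetes-exposed pools, against 379.0, 426.1 and 386.4 in the control pools. Exposed pools 1 and 3 were low and exposed pool 2 lay just under the controls, and the mean log2 fold change was -1.02 (SE 0.31, adjusted p = 0.032). The call for Pecam1 ended when any 1 of the 6 pools but exposed pool 2 was left out, with adjusted p of 0.067 to 0.11. A ratio of Cdh5 to Pecam1 within each array was formed after their opposite calls were seen, and so restates them. It was 4.6, 2.11 and 3.42 in the exposed pools and 1.15, 0.654 and 1.2 in the controls. A single scaling factor per array leaves it as it is. In the fit that holds the spike ratio, described below, both genes stood above 0, Cdh5 at 0.99 (adjusted p = 0.33) and Pecam1 at 0.502 (0.55). The call for Cdh5 ended without control pool 2 (0.49, adjusted p = 0.072), exposed pool 1 (0.70, 0.081) or exposed pool 2 (0.61, 0.055).

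The other 7 surface and matrix genes did not pass. Plvap, which forms the diaphragms of endothelial pores and caveolae, had signals of 876.1, 1114.7 and 899.9 in the exposed pools and 833.7, 694.9 and 716.3 in the controls, without overlap (0.36, SE 0.13, adjusted p = 0.058). For Cldn5, a tight junction protein, the log2 fold change was 0.18 (SE 0.11), and for the sialomucin gene Cd34 it was 0.0067 (SE 0.15) with a 95% interval of -0.33 to 0.34. Robo4, the Robo receptor of endothelium, stood at -0.63 (SE 0.25, adjusted p = 0.084) and was called without exposed pool 1 (-0.86, 0.038). Emcn, a sialomucin of capillaries and veins, gave 629.0, 1138.0 and 610.5 in the exposed pools and 958.4, 972.6 and 1085.3 in the controls. Here exposed pool 2 lay above every control pool and the other exposed pools below. Emcn stood at -0.40 (adjusted p = 0.19) with all pools and at -0.70 (7.89e-04) without exposed pool 2. All 4 probe sets of Egfl7, a secreted endothelial matrix factor, had log2 fold changes between 0.082 and 0.23, none of which passed.

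**Figure D2:**
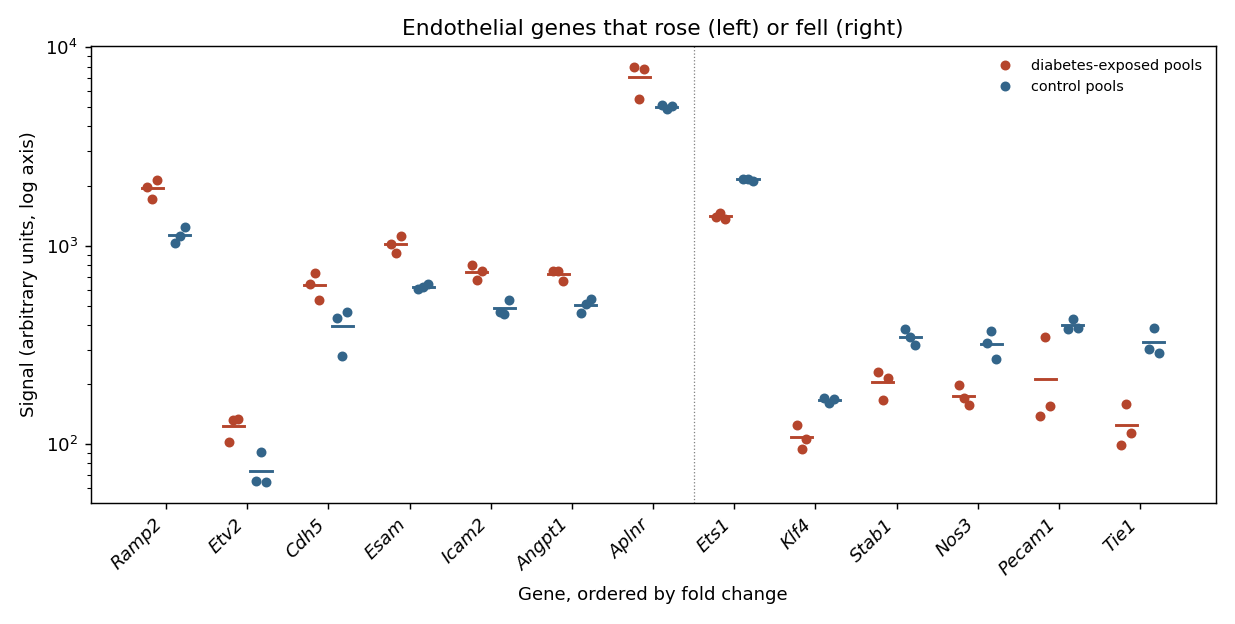
Signal on a log axis (vertical, arbitrary units) for the 13 endothelial genes that rose or fell, where each point is 1 pool and each short line marks a group's mean (n = 3). In each of the 13 genes, picked by their calls on these same signals, the 3 exposed pools lay to one side of the 3 control pools. Of all tested genes, 52.3% did not overlap between the groups. In Pecam1 exposed pool 2 (346.5) lay next to the lowest control pool (379.0).

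Of the 9 receptors and ligands, 3 rose and 1 fell. Tie1 and Tek are the sister receptor tyrosine kinases of endothelium, of which Tek binds the angiopoietins and Tie1 modulates its signal. The signal of Tie1 was 99.2, 159.9 and 114.1 in the diabetes-exposed pools and 302.1, 385.5 and 289.7 in the control pools. Every exposed pool was well below every control pool, and Tie1 fell by 1.41 on the log2 scale (SE 0.22, adjusted p = 0.0021). Tek had 528.4, 627.7 and 558.8 in the exposed pools, against 537.5, 567.8 and 526.2 in the controls. The groups overlapped, and the log2 fold change of 0.069 (SE 0.11, adjusted p = 0.68) had a 95% interval of -0.19 to 0.33. Within the arrays, the ratio of Tek to Tie1 signal was 5.33, 3.93 and 4.90 in the exposed pools and 1.78, 1.47 and 1.82 in the controls, a comparison also chosen after the values were seen.

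The promoters of these receptors are shown because Tie1 fell where Tek did not pass, and because the 5 letters GGAAG differ in number between them. These letters are a longer form of GGAA, the core that ETS factors bind. The sequences run 5' to 3' over 250 bases before and 50 bases after the gene's start (RefSeq, GRCm38.p6), Tie1 at chr4:118489800-118490099 on the minus strand and Tek at chr4:94739039-94739338 on the plus strand. Capitals mark GGAAG and its reverse complement CTTCC.
Tie1: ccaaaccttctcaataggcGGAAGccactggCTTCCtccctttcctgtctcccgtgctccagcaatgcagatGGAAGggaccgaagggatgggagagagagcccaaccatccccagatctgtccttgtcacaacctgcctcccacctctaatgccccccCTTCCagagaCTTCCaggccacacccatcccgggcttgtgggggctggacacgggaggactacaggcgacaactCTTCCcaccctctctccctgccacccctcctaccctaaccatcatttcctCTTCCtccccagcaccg
Tek: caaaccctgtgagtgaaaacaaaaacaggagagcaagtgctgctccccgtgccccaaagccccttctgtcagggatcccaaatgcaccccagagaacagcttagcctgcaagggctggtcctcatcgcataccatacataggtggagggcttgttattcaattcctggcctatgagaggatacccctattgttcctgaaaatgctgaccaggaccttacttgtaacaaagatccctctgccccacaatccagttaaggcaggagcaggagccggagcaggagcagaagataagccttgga
The capitals do not mark GGAA alone, which both promoters also hold as its reverse complement ttcc. The Tie1 promoter held the 5 letters GGAAG, counted on both strands, 7 times and the Tek promoter 0 times. On either strand they occur in 71.4% of the 32851 promoters of this table, and in 18 of the 23 promoters found for 18 of the 36 endothelial genes (78.3%), so their presence alone sets no gene apart. The longer AGGAAG, which contains the shorter word, was present in 35.4% of all promoters and 56.5% of the endothelial ones. Of the other called genes with a promoter here, Stab1 (3 matches) and Klf4 (1) fell and Etv2 (2) rose. Promoters of genes that did not pass held 0 (such as Klf2 and Cldn5) to 4 matches (Apln and 1 promoter of Egfl7). A link between these counts and the calls was not tested. A match is a run of letters and not a measured binding site.

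Angpt1, the angiopoietin that activates Tek and comes mainly from cells around the vessels and from the heart, had signals of 743.8, 749.7 and 661.9 in the exposed pools and 457.5, 505.9 and 542.2 in the controls. It rose 1.43-fold without overlap of the groups (0.52, SE 0.12, adjusted p = 0.0093). A second, dim Angpt1 probe set that was not tested read 4.90, 5.80 and 4.10 in the exposed pools, against 110.9, 110.0 and 26.9 in the controls, and so lay the other way. Angpt2, which endothelial cells make and which can oppose Angpt1, stood at 0.046 (SE 0.25, adjusted p = 0.91).

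Ramp2 encodes the membrane protein that turns the calcitonin receptor-like receptor into a receptor for adrenomedullin. The gene's signal was 1987.1, 1716.9 and 2136.4 in the exposed pools and 1028.6, 1119.0 and 1238.0 in the controls, and it rose 1.72-fold (0.78, SE 0.11, adjusted p = 0.0016). The partner receptor gene Calcrl, from the further endothelial genes described below, rose 1.70-fold, with 947.3, 822.6 and 1052.8 in the exposed pools and 568.4, 514.9 and 574.6 in the controls (0.76, SE 0.12, adjusted p = 0.0022). The ligand gene Adm had 184.1, 126.3 and 226.4 in the exposed pools and 131.0, 100.2 and 106.1 in the controls, with overlap and an adjusted p of 0.083.

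Aplnr, the receptor of apelin, was read by 2 tested probe sets. The brighter gave 7983.8, 5490.0 and 7805.6 in the diabetes-exposed pools and 5115.7, 4895.5 and 5048.6 in the control pools and rose (0.48, SE 0.14, adjusted p = 0.026). The dimmer gave 304.0, 394.1 and 321.7 in the exposed pools, against 485.8, 429.5 and 401.8 in the controls, and stood at -0.37 (SE 0.15, adjusted p = 0.082). In both the groups did not overlap, in opposite directions. The call for the brighter one ended when any pool but exposed pool 2 was left out, with adjusted p of 0.058 to 0.099. Apln, the ligand, stood at -0.48 (SE 0.30, adjusted p = 0.25) with all pools and at -0.77 (0.041) without exposed pool 2. The BMP receptor genes Acvrl1 and Eng, whose loss in people gives rise to hereditary hemorrhagic telangiectasia, overlapped between the groups at each of their 4 probe sets, with log2 fold changes between -0.14 and 0.15.

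Of the 7 transcription factors of endothelial fate, Etv2 rose and Ets1 fell. Etv2 acts early and for a short time in the progenitors of endothelium and blood. Its signal, dim on these arrays, was 103.0, 132.8 and 133.7 in the exposed pools and 65.0, 91.4 and 64.6 in the controls. The groups did not overlap and Etv2 rose 1.68-fold (0.75, SE 0.26, adjusted p = 0.048), close to the threshold. The call ended when any pool but control pool 2 was left out, with adjusted p of 0.058 to 0.14. Its promoter, at chr7:30635803-30636102 on the minus strand of the same build, is shown as that of the 1 factor that rose, with the ETS letters in capitals (2 matches):
Etv2: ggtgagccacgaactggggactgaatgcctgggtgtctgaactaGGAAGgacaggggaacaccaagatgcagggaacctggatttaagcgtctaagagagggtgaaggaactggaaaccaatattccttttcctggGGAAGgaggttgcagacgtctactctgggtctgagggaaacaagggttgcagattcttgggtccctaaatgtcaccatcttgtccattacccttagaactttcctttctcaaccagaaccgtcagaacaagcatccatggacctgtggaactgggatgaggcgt

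Ets1, an ETS factor of endothelium, lymphoid cells and mesenchyme, gave 1395.1, 1467.1 and 1368.3 at its main probe set in the diabetes-exposed pools, against 2178.1, 2182.1 and 2116.4 in the control pools. The pools of each group lay close together, and Ets1 fell by 0.61 on the log2 scale (SE 0.081, adjusted p = 0.0011). A probe set of like brightness, whose identifier marks it as able to bind several transcripts, gave 1929.2, 1492.9 and 1631.6 in the exposed pools and 1873.8, 1566.0 and 1769.7 in the controls. That one overlapped and did not pass (-0.048, SE 0.12, adjusted p = 0.79). Both dim Ets1 probe sets stood below 0, at -1.44 (SE 0.49, adjusted p = 0.049) and -0.81 (SE 0.37, adjusted p = 0.12), and the first lost its call when any pool but control pool 3 was left out (adjusted p of 0.05 to 0.18).

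The ETS factor genes Fli1 and Erg act together to keep up endothelial identity. Fli1 differed between its probe sets. The bright one gave 1492.8, 1406.9 and 1471.6 in the exposed pools, against 1337.4, 1230.4 and 1284.5 in the controls (0.18, SE 0.086, adjusted p = 0.13). The dim one gave 164.3, 121.7 and 106.6 in the exposed pools and 250.3, 196.6 and 204.1 in the controls and fell (-0.75, SE 0.22, adjusted p = 0.027), a call that ended without control pool 1 (-0.64, adjusted p = 0.11), control pool 2 (-0.81, 0.055) or exposed pool 3 (-0.61, 0.087). Neither overlapped between the groups. Erg stood at 0.16 (SE 0.15, adjusted p = 0.45).

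The 3 SoxF genes, which act in arterial and lymphatic fate and can stand in for one another, had log2 fold changes below 0 at their main probe sets, and none of these passed. Sox18 lay above 0 after median centring (0.14) and quantile normalization (0.076) of the arrays, and Sox7 and Sox17 stayed below 0 under those scalings. Sox17 was 341.5, 288.5 and 342.4 in the diabetes-exposed pools and 396.1, 405.1 and 446.1 in the control pools (-0.36, SE 0.13, adjusted p = 0.064), and Sox7 stood at -0.32 (SE 0.13, adjusted p = 0.089), both without overlap. Without exposed pool 2, Sox7 was called (-0.40, adjusted p = 0.04). Sox18 overlapped (-0.17, SE 0.13, adjusted p = 0.34). The main Sox17 probe set, like those of Mmrn2 and Egfl7, has an identifier that marks it as able to bind several transcripts. A dimmer Sox17 probe set gave 82.4, 95.7 and 114.6 in the exposed pools, against 180.3, 182.9 and 141.3 in the controls, and fell (-0.79, SE 0.22, adjusted p = 0.023). Leaving out control pool 1 (-0.73, adjusted p = 0.087), control pool 2 (-0.72, 0.09) or exposed pool 1 (-0.67, 0.074) ended that call.

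Among the arterial and flow-regulated genes, 2 of 4 fell and 0 rose, and Klf4, 1 of these, lost its call under each other scaling of the arrays. Nos3 encodes the endothelial nitric oxide synthase, which shear stress activates. It gave 199.0, 170.2 and 157.9 in the exposed pools and 322.8, 372.2 and 268.4 in the controls. No exposed pool reached the lowest control pool, and Nos3 fell by 0.86 (SE 0.18, adjusted p = 0.0065). Klf4, a zinc finger factor induced by flow in endothelium and active in skin and other epithelia as well, had 125.0, 94.6 and 105.9 in the exposed pools, against 171.8, 161.5 and 168.6 in the controls, and fell by 0.63 (SE 0.20, adjusted p = 0.034). Its second probe set gave 36.4, 35.6 and 52.9 in the exposed pools and 92.8, 111.6 and 78.4 in the controls and fell by 1.19 (SE 0.31, adjusted p = 0.018). The first call ended without any 1 pool other than exposed pool 1 (adjusted p of 0.068 to 0.1) and the second without control pool 1 (-1.19, adjusted p = 0.062), control pool 2 (-1.06, 0.087) or exposed pool 1 (-1.10, 0.051). Klf2, the other flow-induced factor of this family, overlapped (-0.35, SE 0.17, adjusted p = 0.14). Gja4, an arterial gap junction gene, had 448.5, 374.9 and 378.5 in the exposed pools and 410.4, 413.5 and 397.3 in the controls, with a log2 fold change of -0.028 (SE 0.13) and a 95% interval of -0.32 to 0.26.

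Of the 4 lymphatic and scavenger genes, 1 fell and 0 rose at the main probe set. Stab1, a scavenger receptor of sinusoidal endothelium and of macrophages, stood at 232.1, 166.9 and 215.5 in the diabetes-exposed pools and 381.9, 347.5 and 317.2 in the control pools. The groups were clearly separate, and Stab1 fell by 0.78 (SE 0.17, adjusted p = 0.0086). Stab2, its relative in sinusoids, overlapped (0.18, SE 0.26, adjusted p = 0.62). Lyve1, a hyaluronan receptor of lymphatic endothelium and some macrophages, had 162.6, 151.2 and 178.9 in the exposed pools, against 125.5, 131.0 and 132.8 in the controls, and did not pass (0.34, SE 0.18, adjusted p = 0.18). Prox1, the factor that sets lymphatic fate and is also made in liver, heart, lens and nervous system, was dim. Its main probe set gave 31.8, 44.1 and 44.7 in the exposed pools and 100.8, 67.5 and 44.9 in the controls (-0.76, SE 0.39, adjusted p = 0.17). The other tested one gave 11.7, 16.1 and 37.4 in the exposed pools, against 122.8, 234.2 and 59.5 in the controls, and fell (adjusted p = 0.0097). In exposed pools 1 and 2 it lay below 26.7, the mean signal under which probe sets were left out, so that it was tested only through the control pools. Its log2 fold change was -2.64 and, after 32 was added to every signal, -1.56.

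**Figure D3:**
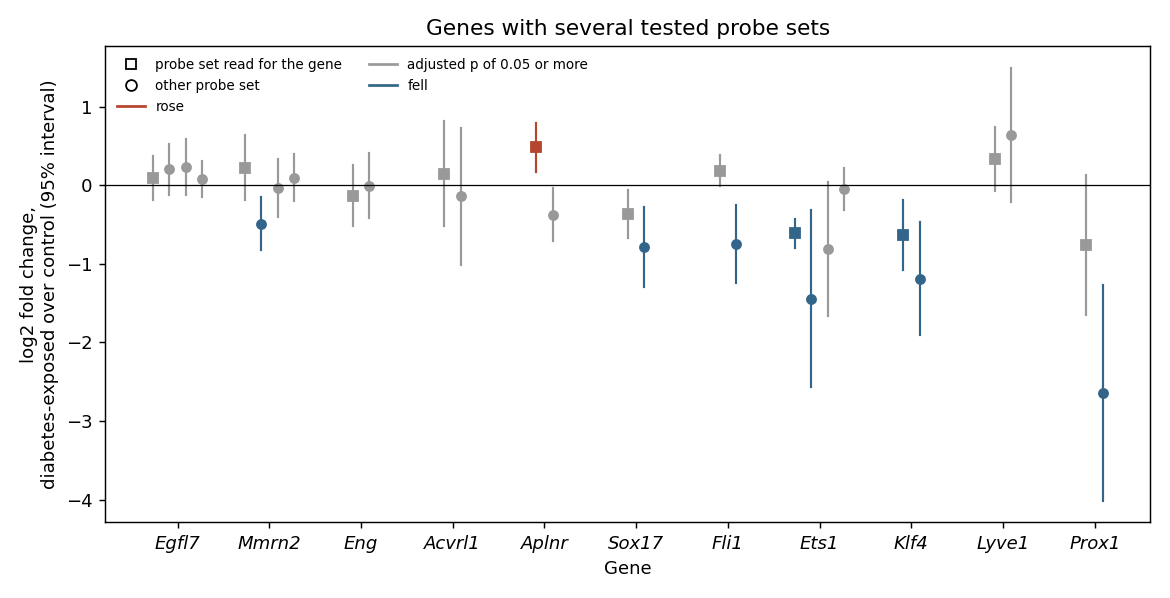
Log2 fold change (vertical axis) with its 95% interval for each tested probe set of the 11 endothelial genes with several, with squares for the probe set read for the gene. The probe sets lay on either side of 0 in Aplnr (0.48 and -0.37), Fli1 (0.18 and -0.75), Mmrn2 (-0.49 to 0.22) and Acvrl1 (0.15 and -0.14). The calls of Mmrn2, Sox17, Fli1 and Prox1 rested on probe sets other than the one read for the gene.

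The 11 genes with several tested probe sets show how far probe sets of 1 gene differed. Of the 7 with a call at any probe set, Klf4 alone was called at each. Egfl7, Eng, Acvrl1 and Lyve1 passed at none. In Mmrn2, a matrix protein of vessels, 1 of 4 probe sets fell, with 188.3, 226.6 and 215.9 in the exposed pools and 315.9, 280.3 and 287.7 in the controls (-0.49, SE 0.15, adjusted p = 0.033). The other 3 stood between -0.036 and 0.22. The Mmrn2 call ended without any 1 pool other than exposed pool 2 (adjusted p of 0.056 to 0.12), and its main probe set was called, as higher, without exposed pool 2 (0.44, adjusted p = 0.011). A second Cdh5 probe set, too dim to be tested, gave 2.80, 33.4 and 10.9 in the exposed pools, against 83.6, 81.9 and 35.4 in the controls, and so lay opposite to the bright one. Within the arrays, the ratio of the brighter to the dimmer Aplnr probe set was 26.3, 13.9 and 24.3 in the exposed pools and 10.5, 11.4 and 12.6 in the controls. For Fli1 the same ratio was 9.09, 11.6 and 13.8 in the exposed pools and 5.34, 6.26 and 6.29 in the controls. Probe positions within the transcripts were not analysed here.

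When the spike ratio of each array was added to the fit as a covariate, 0 endothelial genes rose and 0 fell at an adjusted p under 0.05. At an unadjusted p under 0.05, 4 were higher and 5 lower. The share of all genes at that unadjusted threshold was not computed, so these counts cannot be read as particular to the endothelial genes. The ratio was higher on every exposed array than on every control array. A loss of calls with this covariate therefore does not tell the ratio and the exposure apart. In that fit 1.81% of all genes were called, 11 of them higher and 241 lower. Pecam1 and Aplnr changed sign, to 0.502 (adjusted p = 0.55) and -0.165 (0.63). The other log2 fold changes kept their sign and were 0.99 for Cdh5 (adjusted p = 0.33), 1.03 for Etv2 (0.44), 0.59 for Angpt1 (0.30), -1.22 for Stab1 (0.13), -0.965 for Klf4 (0.32), -0.775 for Nos3 (0.39) and -0.49 for Ets1 (0.16). The remaining ones were 0.38 for Ramp2 (0.35), 0.40 for Esam (0.37), 0.31 for Icam2 (0.59) and -0.62 for Tie1 (0.50). With diabetes-exposed pools 1 and 3 left out, so that only exposed pool 2 stood against the controls and was assumed to vary as they do, 7 of the 13 lost their calls with their direction kept. These were Pecam1 at -0.195 (adjusted p = 0.50), Aplnr at 0.13 (0.34), Etv2 at 0.87 (0.18), Icam2 at 0.48 (0.095), Klf4 at -0.82 (0.075), Cdh5 at 0.94 (0.074) and Angpt1 at 0.58 (0.053).

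Over all genes, the median log2 fold change stood at 0.30 after median centring, 0.14 after quantile and 0.081 after cyclic loess normalization, against -2.54e-04 as deposited. The endothelial median moved with it, to 0.35, 0.26 and 0.19, and the split of endothelial genes that rose and fell became 11 and 2 (31.4% and 5.71%), 11 and 3 (31.4% and 8.57%), and 8 and 4 (22.9% and 11.4%). Of all genes, 29.4% and 8.65% were called after median centring, 24.1% and 15.4% after quantile and 20.3% and 17% after loess normalization. None of the 13 called genes changed direction under these scalings. Pecam1 (-0.72, -0.71 and -0.79) and Klf4 (-0.33, -0.29 and -0.42) lost their calls under all of them. Stab1 did so under median centring (-0.47) and quantile normalization (-0.46), Ets1 under median centring (-0.31), and Aplnr under quantile (0.21) and loess normalization (0.27). Plvap (0.66, 0.55 and 0.46) and Lyve1 (0.64, 0.67 and 0.56) gained one under all of them, Cldn5 (0.48 and 0.42) and Fli1 (0.48 and 0.26) under the first pair, and Erg (0.49) under quantile normalization. At probe sets other than the main one, Mmrn2 (-0.19, -0.17 and -0.26), Sox17 (-0.49, -0.46 and -0.58) and Fli1 (-0.44, -0.41 and -0.52) lost their calls under each scaling. There Prox1 kept its call under each, Klf4 lost it under median centring, and Ets1 under quantile and loess normalization.

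**Figure D4:**
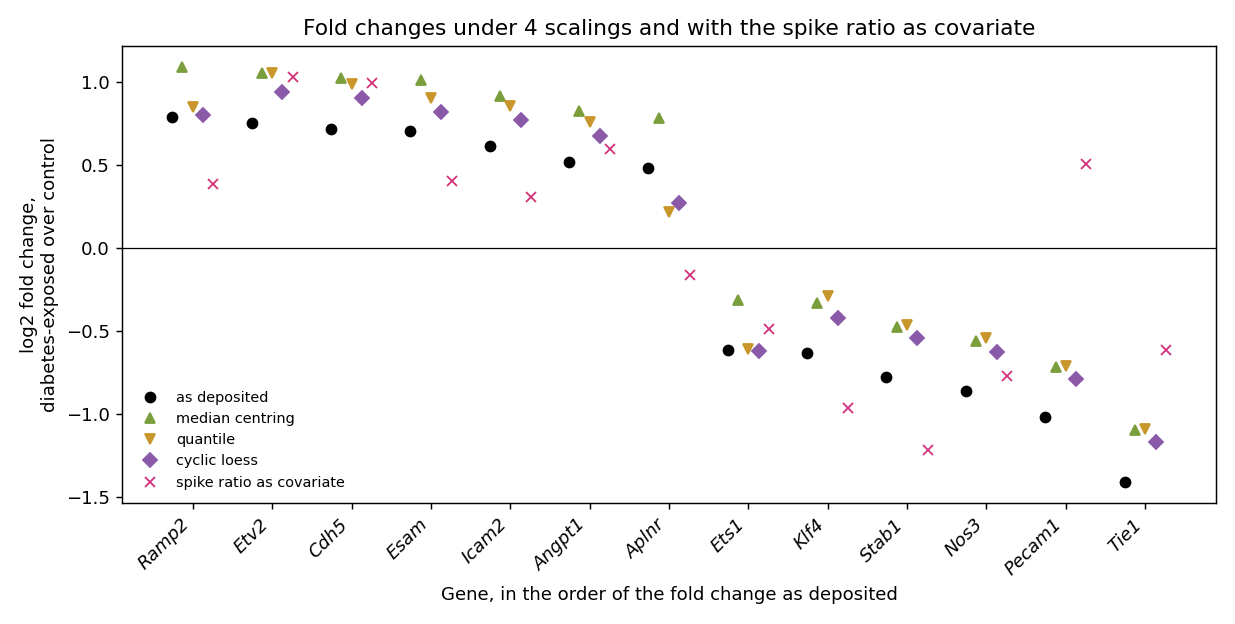
Log2 fold change (vertical axis) of the 13 endothelial genes that rose or fell, as deposited, under 3 other scalings of the arrays and in the fit that holds the spike ratio. The direction of every gene held under the scalings, and with the covariate Aplnr (-0.165) and Pecam1 (0.502) crossed 0.

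A further list of 40 endothelial genes outside the 36, covering receptors, Notch and ephrin genes and other markers, was measured in full. Of these, 6 rose (15%) and 14 fell (35%), against 17.6% and 19.9% of all genes. After median centring 9 rose and 5 fell (22.5% and 12.5%, against 29.4% and 8.65% of all genes). After quantile normalization these counts were 8 and 9 (20% and 22.5%, against 24.1% and 15.4% of all genes). After loess normalization they were 7 and 11 (17.5% and 27.5%, against 20.3% and 17% of all genes). In the fit that holds the spike ratio 0 rose and 3 fell (7.5%, against 1.73% of all genes). Those that fell with the smallest adjusted p were Foxc1, a forkhead factor of mesenchyme and vessels (432.6 ± 42.0 in the exposed pools and 1276 ± 27.4 in the controls, SD, n = 3 each), Procr, the endothelial protein C receptor (154.7 ± 22.4 in the exposed pools and 434.3 ± 31.2 in the controls), and Ephb4, the ephrin receptor of veins (427.1 ± 80.4 in the exposed pools and 933.6 ± 167 in the controls). Their adjusted p were 1.77e-04, 5.91e-04 and 0.0021. Those that rose with the smallest were Ecscr, an endothelial surface protein of migrating cells (1015 ± 89.6 in the exposed pools and 557.8 ± 92.7 in the controls, adjusted p = 0.0022), Calcrl, described above, and Tmem204 (478.3 ± 97.6 in the exposed pools and 277.6 ± 8.88 in the controls, adjusted p = 0.0085).

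Markers of cells that share some of these transcripts were read as well. Of 13 measured macrophage markers (of 14 listed), 2 rose (Csf1r and C1qb) and 0 fell, against 17.6% and 19.9% of all genes. The summed signal of the 13 was 1965 to 2336 in the exposed pools and 1673 to 1752 in the controls. Without Csf1r and C1qb it was 1222 to 1504 in the exposed pools and 1162 to 1246 in the controls. Cd68, Lyz2, C1qa and Cx3cr1 had lower means in the exposed pools and did not pass. Of 12 markers of blood cells and platelets, 2 rose (Pf4 and Gp9) and 2 fell (Coro1a and Itga2b), with sums of 3244 to 4103 in the exposed pools and 3298 to 3836 in the controls. Gp9 had signals of 7.30, 46.7 and 22.9 in the controls, mostly under the filter, and was tested only through the exposed pools. Their part in the endothelial values was not tested.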

How the data were processed

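Pooled total RNA was biotin-labeled and hybridized to Affymetrix Mouse 430 2.0 arrays. The authors deposited 1 linear signal intensity per probe set, made from its matched and mismatched probes by GCOS and MAS5 (version: not given in the sources used here). They had scaled each array to the same mean: without the lowest and highest 2% of signals, each of the 6 arrays averaged 500. Detection flags were not used here. For arrays, depth is signal over background, and the number of arrays limits the precision.

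Log2 of the signals was taken with no further scaling. The 64 control probe sets and the dimmest 33.3% by mean log2 signal were left out, which left 30023. The contrast of diabetes-exposed over control pools was fitted in R 4.3.3 by limma 3.58.1 (lmFit, eBayes with trend), and p was adjusted after Benjamini and Hochberg over the 30023. The labels call the pools biological replicates. Symbols came from the platform's table (34958 probe sets with 1 symbol, 932 with several, 9211 with none). A pair of probe sets shared by Ramp2 and Vps25 was left out.

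All 36 genes are named. Signals of every pool are given for genes called at the main probe set, for those whose probe sets differed and for those whose levels are compared. From the other lists, up to 3 genes that rose and 3 that fell with the smallest adjusted p are named; Calcrl and Adm in the account of Ramp2, and the tissue and blood cell markers named, were picked after their values were seen. Members and lists were chosen with earlier results of these data known, as were the spike ratio (averaged as log2 over 8 pairs of probe sets) as a covariate and the fit without exposed pools 1 and 3. The procedure was tested on simulated data. Figures were drawn with matplotlib 3.10.9.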

Additional observations from a re-analysis of the deposited data

How the results depend on the processing

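For the 19 endothelial probe sets that rose or fell, 339 refits under the alternatives gave 215 with the same direction and call, 122 with the same direction only and 2 with the direction turned, Pecam1 (0.502) and Aplnr (-0.165), both in the fit that holds the spike ratio. The cause of changes was not tested. Shares of all genes are given above only for the other scalings and the spike ratio. Gene counts under the further settings, and probe set counts under any alternative, stand without such shares. They cannot be read as particular to the endothelial genes. The counts of genes that rose and fell, 7 and 6, were 11 and 2 after median centring, 11 and 3 after quantile normalization, 0 and 0 with the spike ratio, and 0 and 2 (Tie1 and Pecam1) at a minimum of 2-fold. A Welch test was also run on the linear signals, without the detection flags and the Cyber-T test that the paper used beside its own. By it the counts were 0 and 1 (Ets1) after Benjamini-Hochberg adjustment. At an unadjusted p under 0.05 they were 8 and 7. For probe sets, 7 and 12, they were 13 and 4, 13 and 5, 0 and 0, 0 and 5, and 0 and 1 in the same order, and 6 fell after cyclic loess normalization. Without exposed pools 1 and 3, 3 genes and 3 probe sets rose and 5 probe sets fell. Leaving out 1 pool at a time gave 4 to 6 genes and 4 to 6 probe sets that rose, 4 to 8 genes and 5 to 14 probe sets that fell, and a median of -0.0018 to 0.117. The lowest count of probe sets that fell, 5, came without control replicate 1 or 2 (7 without diabetes-exposed replicate 3), and the lowest count of genes that rose, 4, without diabetes-exposed replicate 1. The median of the endothelial genes, 0.0463, was 0.349 after median centring, 0.259 after quantile and 0.193 after loess normalization, -0.0277 with each gene's probe sets averaged and 0.129 without exposed pools 1 and 3. Without the probe sets whose identifier marks them as able to bind several transcripts, 7 genes rose and 7 fell, and 7 and 11 probe sets. With the replicate number as a block, 6 genes rose and 6 fell, and 6 and 11 probe sets, and Etv2 (0.751, adjusted p = 0.056) and the dimmer Mmrn2 probe set (-0.489, adjusted p = 0.056) lost their calls. Pools of the same number correlated in their deviations at 0, 0.076 and 0.118, so the number was not taken to pair them. Whether dim probe sets such as those of Etv2 and Prox1 were above background was not tested.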

Other observations

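Vessel wall cells, which are not endothelial, were read beside the endothelial genes. Of 11 measured markers of pericytes and smooth muscle (of 12 listed), 3 rose and 2 fell, with summed signals of 13910 to 15630 in the diabetes-exposed pools and 10730 to 10860 in the control pools. Without Acta2 the sums were 5936 to 6262 in the exposed pools and 6250 to 6547 in the controls. Of all genes, 17.6% rose and 19.9% fell. Acta2, smooth muscle actin, which heart muscle also makes at this stage, had signals of 8643, 7979 and 9630 in the diabetes-exposed pools and 4478, 4283 and 4312 in the control pools (adjusted p = 2.67e-04). Tagln, an actin-binding protein of smooth muscle, had 1468, 1800 and 1549 in the exposed pools and 803.2, 864.4 and 887.9 in the controls (adjusted p = 7.62e-04), and Rgs5, a marker of pericytes, had 424.5, 454.2 and 446.2 in the exposed pools and 315.0, 334.2 and 349.3 in the controls (adjusted p = 0.028). Notch3, the Notch receptor of mural cells, fell, with 917.3, 794.6 and 880.1 in the exposed pools and 1975, 1975 and 1977 in the controls, and so did Mylk. For each of Acta2, Tagln, Rgs5 and Notch3 the groups did not overlap. Other pericyte markers of the list did not pass: Pdgfrb (log2 fold change -0.13), Cspg4 (-0.045), Kcnj8 (-0.12) and Abcc9 (0.45).

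Rasip1, an endothelial regulator of vessel lumen formation, was chosen after its values were seen. Its signal was 14.0, 76.9 and 22.2 in the exposed pools and 358.3, 308.1 and 286.0 in the controls (adjusted p = 0.0021). In exposed pools 1 and 3 it lay below 26.7, the mean signal under which probe sets were left out, and whether it was above background there was not tested.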
